A study of Oryza sativa with 18 samples.

Results

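In rice callus, 8 NAC genes were followed, 6 known for stress responses (SNAC2/OsNAC6, OsNAC5, OsNAC10, OsNAC4, ONAC045 and OsNAC3) and 2 known for senescence (OsNAP and OsNAC2). They were picked by locus number for these known roles from 38335 genes listed for pCPL callus, 38428 listed for pOE callus and 65535 entries listed for YIL25 callus. Earlier results of these data were known when they were chosen. All 8 were found in the pCPL and pOE tables. The YIL25 table ends early on chromosome 3, after chromosomes 1 and 2, and of the 8 genes SNAC2 and OsNAC4 were the ones analysed in YIL25.

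The samples were calli grown from mature seed, kept in the dark and taken after 21 days of subculture, with 18 libraries in 6 groups of 3 biological replicates. YIL25 is an introgression line with segments of Yuanjiang common wild rice in the indica variety Teqing, and it carries the wild rice allele of BOC1. pCPL is Teqing transformed with the YIL25 BOC1 gene under its own promoter, and pOE is Teqing transformed with the YIL25 BOC1 coding sequence under a Ubiquitin promoter, which is active in most cells. Each line was sequenced beside its own Teqing callus, and these controls are named Teqing1 for YIL25, Teqing2 for pCPL and Teqing3 for pOE. The transformation events behind the pCPL and pOE calli are not named in the sources used here. Values are FPKM, read fragments scaled to transcript length and to the mapped fragments of the library, and the 3 tables were normalized separately. BOC1, the gene the lines were made to change, averaged 102 ± 1.38 FPKM in pCPL and 57.6 ± 0.324 FPKM in Teqing2, and 579 ± 4.42 FPKM in pOE and 65.5 ± 2.65 FPKM in Teqing3 (SD, n = 3 libraries, as for every mean below).

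NAC proteins are transcription factors found only in plants. They share a DNA-binding domain near the N terminus, while the rest of the protein varies and carries the activating region. Stress NAC genes are switched on by drought, salt, cold, wounding or abscisic acid (ABA), and they raise protective genes such as those for LEA proteins. Senescence NAC genes act in ageing leaves, where they promote the breakdown of chlorophyll and the recovery of nutrients. BOC1 is an SRO protein gene, and in rice it is a known direct target of SNAC1, another stress NAC factor.

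In pCPL callus 6 of the 8 NAC genes fell and 1 rose, and in pOE callus 6 fell and 2 rose (limma on log2(FPKM + 1), adjusted p under 0.05 after Benjamini-Hochberg adjustment over all genes tested). Such calls were common in these libraries. Of 21659 genes tested in pCPL, 35.6% fell and 35.0% rose, and of 22122 tested in pOE, 36.8% fell and 35.3% rose. The share of the 8 genes that fell was thus above that of all genes, and it rests on few genes. Because they were chosen with earlier results of these data known, the comparisons with all genes are only a description. At the stricter thresholds of the study, a fold change of 2 with an adjusted p under 0.001, 3 of the 8 fell in pCPL, against 5.97% of all genes, and 4 of the 8 fell in pOE, against 8.90%. All of these were decreases, while among all genes 7.84% rose at those thresholds in pCPL and 6.95% in pOE. The median log2 fold change of the 8 genes was -0.66 in pCPL and -0.92 in pOE, while the median over all genes tested was -0.01 in pCPL and 0.00 in pOE.

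**Figure D1:**
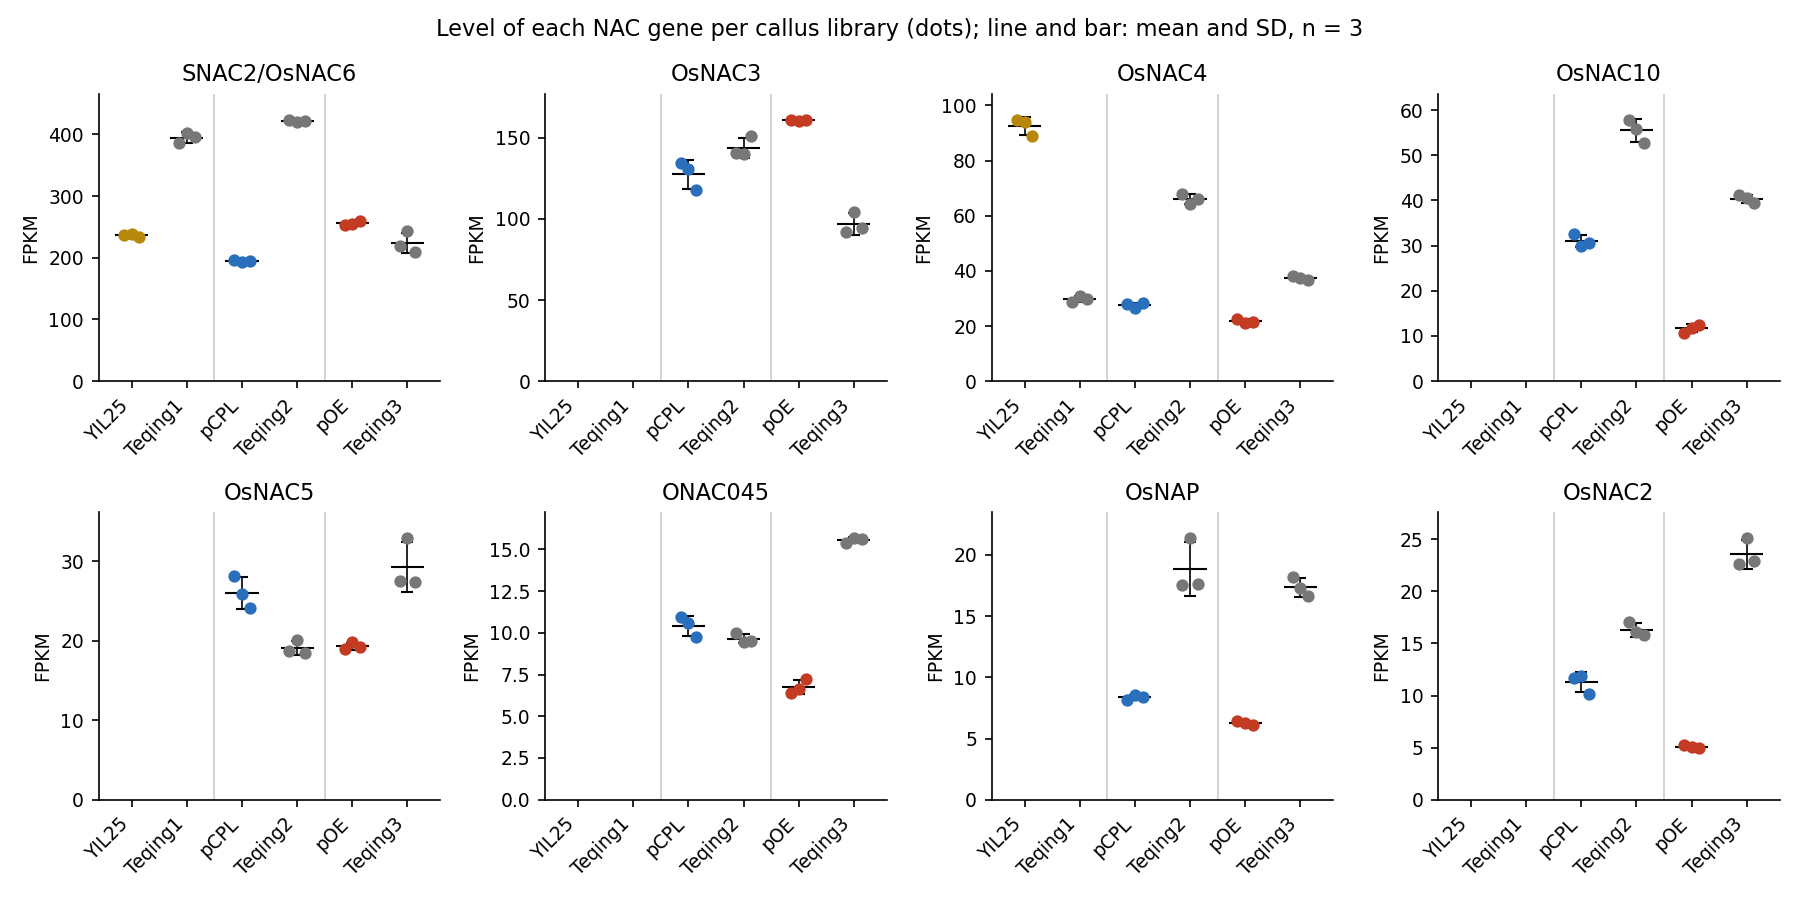
FPKM (linear axis from 0) of each of the 8 NAC genes in every library, with each line left of the Teqing group sequenced beside it and the mean and SD of 3 libraries. SNAC2 ran from 195 FPKM on average in pCPL to 422 FPKM in Teqing2, OsNAP and OsNAC2 were low in both transgenic lines, and panels without YIL25 and Teqing1 points are genes not analysed there.

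SNAC2, also named OsNAC6, is induced by cold, drought, salt, wounding and ABA, and rice that overproduces it withstands these stresses better. The gene (LOC_Os01g66120) spans 38398996 to 38401481 of chromosome 1 (IRGSP-1.0, as the authors number it). It was the most abundant of the 8 in the 12 libraries of the pCPL and pOE tables. In YIL25 callus SNAC2 stood at 237, 239 and 233 FPKM, against 386, 403 and 395 FPKM in Teqing1. Every YIL25 library was thus below every Teqing1 library, as for 45.2% of all genes tested. SNAC2 fell to 0.599 times its Teqing1 level, or -0.74 on the log2 scale (SE, the standard error of the fit, 0.0250, adjusted p = 1.17e-06 by limma). Only 2 of the 8 could be read in this comparison, where 43.2% of 8196 genes fell and 29.5% rose.

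The 3 pCPL libraries held SNAC2 at 197, 194 and 195 FPKM, and the Teqing2 libraries at 424, 419.8 and 422 FPKM. The groups lay far apart with little spread inside each. SNAC2 fell to 0.462 times the Teqing2 level, a log2 fold change of -1.11 (SE 0.0245, adjusted p = 6.94e-10 by limma), which met the study's thresholds. In pOE callus the order was turned, with 253, 255 and 259 FPKM in pOE and 219, 243 and 210.1 FPKM in Teqing3. The pOE libraries were close together and above all Teqing3 libraries, which spread more widely. SNAC2 rose by a log2 fold change of 0.19 (SE 0.0492, adjusted p = 5.96e-03 by limma). Limma-voom on reads recovered from the FPKM gave 0.36, but it also moved the median of all genes in pOE up to 0.17. Across the tables, which were normalized separately, Teqing2 and Teqing3 themselves differed, with SNAC2 in Teqing2 at 1.88 times its level in Teqing3, and the pOE mean lay at 0.606 times that of Teqing2.

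OsNAC3 (LOC_Os07g12340, chromosome 7 from 6968003 to 6969254) is a NAC gene induced by ABA, and it was the second most abundant of the 8 in the pCPL and pOE tables. The pCPL libraries had 134, 130.5 and 118 FPKM, against 141, 139.8 and 151 FPKM in Teqing2. The groups did not overlap, although the highest pCPL and the lowest Teqing2 library lay close together. OsNAC3 fell slightly, by a log2 fold change of -0.17 (SE 0.0519, adjusted p = 0.0135 by limma). In pOE it was at 161, 160.2 and 161 FPKM, against 91.8, 104 and 94.3 FPKM in Teqing3. All pOE libraries were well above all Teqing3 libraries. The ratio of the means was 1.66 and the log2 fold change 0.73 (SE 0.0475, adjusted p = 8.76e-07 by limma). SNAC2 and OsNAC3 were the members that rose in pOE.

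OsNAC5 (LOC_Os11g08210, chromosome 11 from 4299277 to 4301784) responds to ABA and drought, and its protein binds the promoter of the LEA gene OsLEA3. It was the 1 member that rose in pCPL, with 28.1, 25.8 and 24.1 FPKM there and 18.7, 20.1 and 18.5 FPKM in Teqing2. Every pCPL library was above every Teqing2 library. The log2 fold change was 0.43 (SE 0.0646, adjusted p = 2.50e-04 by limma). In pOE callus OsNAC5 was at 18.9, 19.8 and 19.3 FPKM, against 27.5, 32.9 and 27.4 FPKM in Teqing3. The pOE libraries were all below those of Teqing3, of which replicate 2 was the highest. OsNAC5 fell to 0.660 times the Teqing3 level, a log2 fold change of -0.57 (SE 0.0730, adjusted p = 8.34e-05 by limma).

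OsNAC10 (LOC_Os11g03300) raises drought tolerance of rice when it is driven in roots, and ONAC045 (LOC_Os11g03370) is a drought and salt stress gene. They are near neighbours on chromosome 11, OsNAC10 from 1233932 to 1235977 and ONAC045 from 1269314 to 1271179, with 33336 bases between them. OsNAC10 was at 32.5, 29.97 and 30.7 FPKM in pCPL, against 57.9, 55.8 and 52.8 FPKM in Teqing2, and it fell by 0.82 on the log2 scale (SE 0.0495, adjusted p = 4.31e-07 by limma). In pOE it was at 10.7, 11.9 and 12.4 FPKM, against 41.2, 40.4 and 39.5 FPKM in Teqing3. OsNAC10 was low in both lines, and lowest in pOE, where it was at 0.289 times the Teqing3 level (log2 fold change -1.71, SE 0.0619, adjusted p = 1.87e-08 by limma). The neighbour ONAC045 did not share the pCPL difference. Its pCPL libraries had 10.9, 10.6 and 9.74 FPKM and its Teqing2 libraries 9.99, 9.46 and 9.52 FPKM. These ranges overlapped, and the log2 fold change of 0.10 did not pass the test (SE 0.0698, adjusted p = 0.232 by limma). In pOE callus ONAC045 was at 6.41, 6.63 and 7.23 FPKM, against 15.4, 15.7 and 15.6 FPKM in Teqing3. Here the groups were clearly apart. ONAC045 fell to 0.434 times the Teqing3 level (log2 fold change -1.10, SE 0.0698, adjusted p = 7.29e-07 by limma). The ratio of OsNAC10 to ONAC045 within a library averaged 2.99 ± 0.157 in pCPL and 5.75 ± 0.181 in Teqing2, and 1.73 ± 0.0573 in pOE and 2.60 ± 0.0779 in Teqing3.

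OsNAC10 has a close copy, ONAC131 (LOC_Os12g03040), in the matching region of chromosome 12, and the sources used here do not say how the authors' counting shared reads between such copies. ONAC131 averaged 28.3 ± 0.945 FPKM in pCPL and 38.5 ± 0.404 FPKM in Teqing2, and 7.99 ± 0.394 FPKM in pOE and 34.7 ± 0.947 FPKM in Teqing3. It fell in both lines, with log2 fold changes of -0.43 in pCPL (limma adjusted p = 1.47e-05) and -1.99 in pOE (limma adjusted p = 5.42e-09). The levels of both copies are therefore uncertain as to which copy the reads came from.

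OsNAC4 (LOC_Os01g60020, chromosome 1 from 34692912 to 34694391) promotes the hypersensitive cell death of plant immunity. Of the genes read in all 3 comparisons, it was the one that rose in YIL25 and fell in both transgenic lines. In YIL25 callus OsNAC4 was at 94.8, 94.0 and 88.8 FPKM, against 28.6, 31.0 and 29.8 FPKM in Teqing1. All YIL25 libraries were far above those of Teqing1, as for 31.2% of all genes tested, with a ratio of 3.11 and a log2 fold change of 1.60 (SE 0.0430, adjusted p = 6.31e-07 by limma), past the study's thresholds as 8.41% of all genes were. The pCPL libraries had 28.0, 26.5 and 28.2 FPKM, against 67.7, 64.1 and 66.2 FPKM in Teqing2. OsNAC4 fell there to 0.418 times the Teqing2 level (log2 fold change -1.23, SE 0.0430, adjusted p = 1.21e-08 by limma). The pOE libraries had 22.6, 21.3 and 21.5 FPKM, against 38.1, 37.4 and 36.8 FPKM in Teqing3. The pOE values were again below every Teqing3 value, by 0.75 on the log2 scale (ratio 0.582, SE 0.0473, adjusted p = 6.67e-07 by limma).

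Across the separately normalized tables the Teqing groups differed for OsNAC4, with Teqing2 at 2.22 times Teqing1. YIL25 was above all 3 Teqing groups, at 1.40 times Teqing2 and 2.47 times Teqing3, and pCPL and pOE were below all 3. The nearest of these pairs was pCPL beside Teqing1, at a ratio of 0.925 with no overlap of libraries. Within a library SNAC2 was 2.56 ± 0.0648 times OsNAC4 in YIL25 and 13.3 ± 0.236 times in Teqing1. The same ratio was 7.08 ± 0.205 in pCPL and 6.39 ± 0.146 in Teqing2, and 11.7 ± 0.482 in pOE and 5.98 ± 0.434 in Teqing3.

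OsNAP (LOC_Os03g21060, chromosome 3 from 11973989 to 11976381) links ABA to leaf senescence, and its protein switches on genes of chlorophyll breakdown. In pCPL callus it was at 8.14, 8.53 and 8.38 FPKM, against 17.5, 21.4 and 17.6 FPKM in Teqing2. The pCPL libraries were tightly grouped below all Teqing2 libraries. OsNAP fell to 0.443 times the Teqing2 level (log2 fold change -1.08, SE 0.0819, adjusted p = 2.05e-06 by limma). Without Teqing2 replicate 2, the high one, the fold change on the log2(FPKM + 1) scale was -0.99, just short of the 2-fold threshold applied on that scale, while the ratio of the FPKM means was still 0.475. That left 2 of the 8 members at the thresholds in pCPL. The pOE libraries had 6.40, 6.24 and 6.12 FPKM, against 18.2, 17.3 and 16.6 FPKM in Teqing3. All were again below their Teqing group, at a ratio of 0.360 (log2 fold change -1.34, SE 0.0673, adjusted p = 1.55e-07 by limma). OsNAP had the most even Teqing level of the 8 genes, with Teqing2 at 1.09 times Teqing3 and overlapping libraries.

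OsNAC2 (LOC_Os04g38720, chromosome 4 from 22994561 to 22996624) promotes leaf senescence, and its messenger RNA is a target of the microRNA miR164. Its libraries had 11.7, 11.9 and 10.2 FPKM in pCPL, against 17.0, 16.1 and 15.8 FPKM in Teqing2. It fell in pCPL by 0.50 on the log2 scale, short of 2-fold (SE 0.0730, adjusted p = 1.93e-04 by limma). In pOE callus OsNAC2 was at 5.27, 5.05 and 4.92 FPKM, against 22.6, 25.1 and 22.95 FPKM in Teqing3. The pOE libraries were the lowest of any group for any member. The ratio of the means was 0.216, and the log2 fold change of -2.01 was the largest in size among the 8 genes in pOE (SE 0.0698, adjusted p = 1.41e-08 by limma). The 2 senescence genes were not lowered in the same proportion. OsNAP was 0.746 ± 0.0700 times OsNAC2 in pCPL and 1.16 ± 0.153 times in Teqing2, but 1.23 ± 0.0154 times in pOE and 0.739 ± 0.0593 times in Teqing3.

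**Figure D2:**
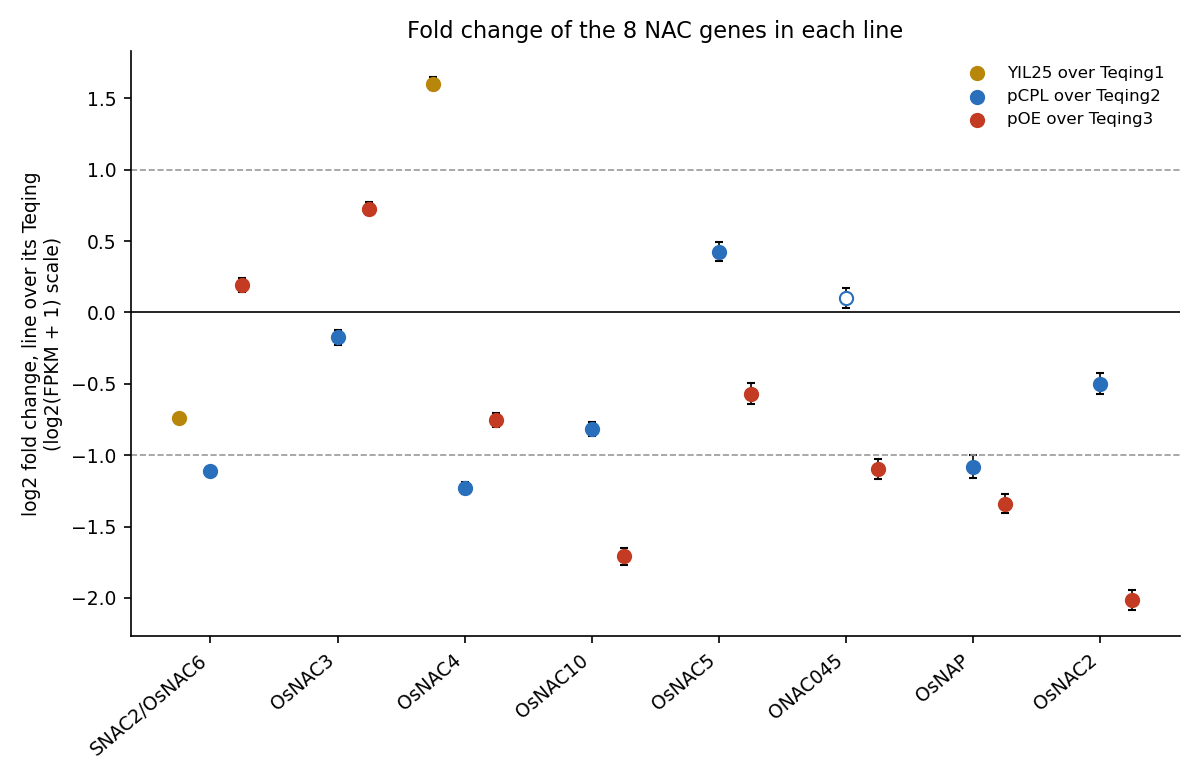
Log2 fold change of each NAC gene in each line over its own Teqing group, on the log2(FPKM + 1) scale, with bars for the standard error, dashed lines at 2-fold and an open circle where the adjusted p was not under 0.05 (ONAC045 in pCPL). OsNAC10, OsNAC4, OsNAP and OsNAC2 are below 0 in both transgenic lines, and OsNAC4 is above 0 in YIL25.

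Libraries of a line and its Teqing did not overlap for 7 of the 8 genes in pCPL and for 8 of 8 in pOE. Over all genes tested, 37.4% were lower and 36.8% higher with no overlap in pCPL, and 38.4% were lower and 36.7% higher in pOE. In bulk callus, fewer cells that express a gene and less of its RNA per cell cannot be told apart. The calli held little RNA of green tissue or endosperm. The 2 RbcS genes, for the small Rubisco subunit, were at 0 in most libraries of the pCPL and pOE tables and at most at 0.119 FPKM, and the glutelin means were at most 6.50 FPKM. The light-harvesting gene CAB1R was the exception, at 12.3 ± 0.354 FPKM in pCPL and 54.9 ± 4.28 FPKM in Teqing2, and at 3.02 ± 0.297 FPKM in pOE and 49.0 ± 1.74 FPKM in Teqing3. It was low where OsNAP and OsNAC2 were low, while another gene of that family, CAB2R, was higher in pOE, at 3.26 ± 0.616 FPKM, than in Teqing3, at 0.507 ± 0.136 FPKM. PCNA, a replication clamp of dividing cells, ranged from 41.5 FPKM in Teqing3 to 84.4 FPKM in Teqing2. QHB, listed with PCNA for dividing or meristematic cells, ranged from 5.87 FPKM in YIL25 to 16.2 FPKM in pCPL. The log2 fold changes of PCNA and QHB were 0.27 and -1.04 in YIL25, -0.20 and 0.14 in pCPL, and 0.42 and 0.69 in pOE. They thus did not always go the same way, and QHB in pCPL did not pass the test. The part of these marker differences in the NAC levels was not tested.

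Because Teqing2 and Teqing3 differed, each transgenic line was also set beside the other line's Teqing group, as a description with no test, since the tables were normalized separately. OsNAC10, OsNAC4, OsNAP and OsNAC2 were below both Teqing groups in both lines, with no overlap of libraries, and these were the 4 members of which that held. For such comparisons, here and below, the share of all genes was not counted. Beside their own Teqing group alone, 37.4% of all genes tested were lower with no overlap in pCPL and 38.4% in pOE. For OsNAP the pCPL mean was 0.443 times Teqing2 and 0.481 times Teqing3, and the pOE mean 0.332 times Teqing2 and 0.360 times Teqing3. For OsNAC2 the pCPL mean was 0.690 times Teqing2 and 0.478 times Teqing3, and the pOE mean 0.311 times Teqing2 and 0.216 times Teqing3. OsNAC10 and OsNAC4 had smaller ratios against Teqing2 than against Teqing3 in both lines. The pOE mean of OsNAC10 was 0.210 times Teqing2, and its pCPL mean was 0.769 times Teqing3.

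The other members depended on the Teqing group. SNAC2 was below both groups in pCPL, though at 0.870 times Teqing3 by little, and lay between them in pOE. OsNAC3 was above both in pOE, at 1.12 times Teqing2 and 1.66 times Teqing3, and between them in pCPL. OsNAC5 rose in pCPL against its own Teqing2 but overlapped Teqing3, at a ratio of 0.889, and in pOE it fell against its own Teqing3 but overlapped Teqing2, at a ratio of 1.01. ONAC045 was below both groups in pOE and overlapped Teqing2 in pCPL. The direction given above for SNAC2 in pOE, OsNAC3 in pCPL, and OsNAC5 in both lines thus holds for the Teqing group sequenced beside each line and not for the other.

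**Figure D3:**
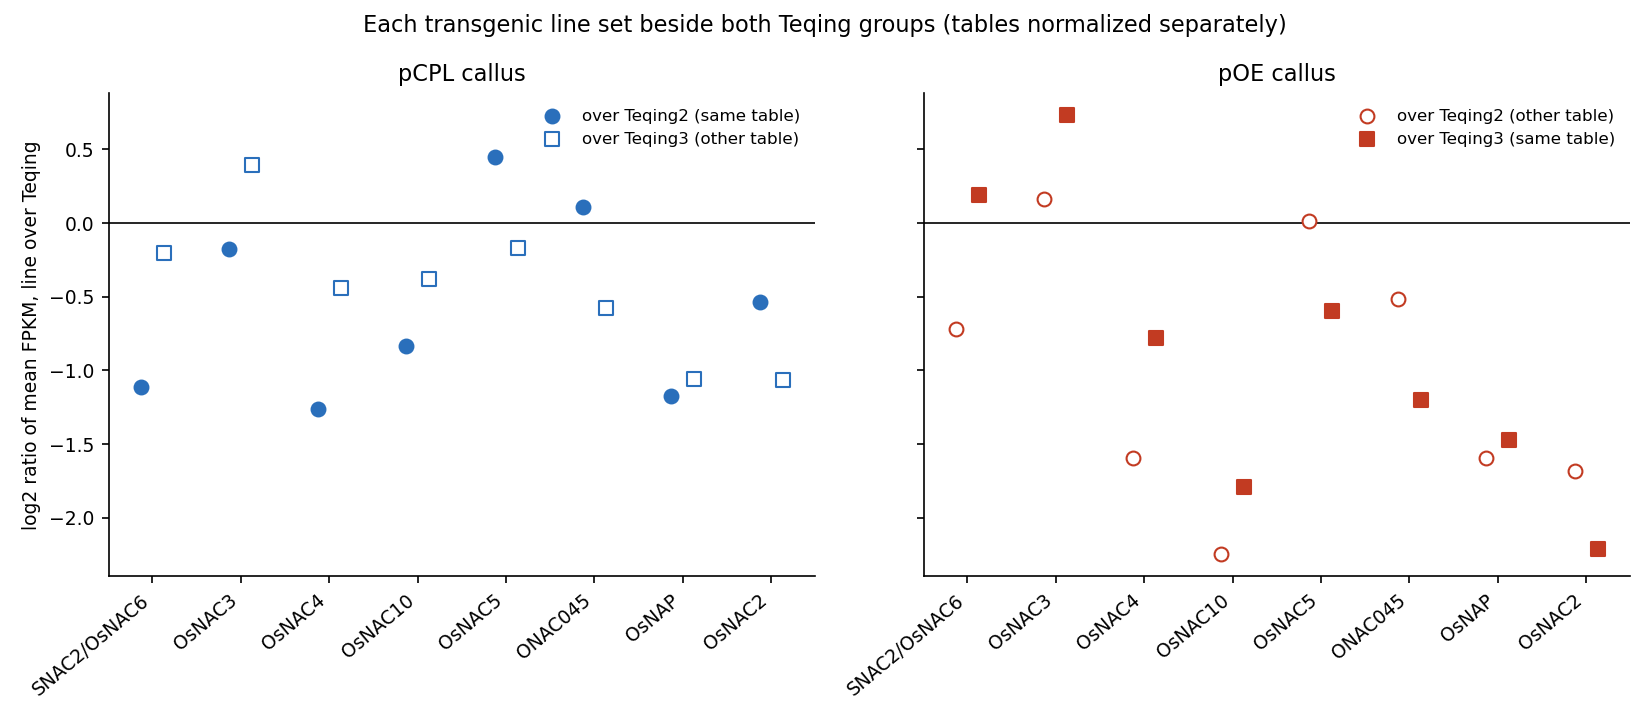
Log2 ratio of mean FPKM of each NAC gene in pCPL (left) and pOE (right) over Teqing2 (circles) and Teqing3 (squares), filled for the Teqing group of the same table. OsNAP lies between -1.06 and -1.59 for every pair, whereas the SNAC2 ratio in pOE is -0.72 over Teqing2 and 0.19 over Teqing3.

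As a sum over the 8 genes, a library held 437 ± 13.4 FPKM in pCPL and 751 ± 3.96 FPKM in Teqing2, but 487 ± 4.14 FPKM in pOE and 484 ± 27.8 FPKM in Teqing3. SNAC2 made up the largest part of that sum. Its share was 44.6 ± 1.20% in pCPL and 56.2 ± 0.119% in Teqing2, and 52.5 ± 0.220% in pOE and 46.2 ± 0.849% in Teqing3. The share of OsNAC3 was higher in both lines, at 29.1 ± 1.19% in pCPL and 19.1 ± 0.763% in Teqing2, and at 33.0 ± 0.221% in pOE and 20.0 ± 0.533% in Teqing3. In pOE the higher levels of SNAC2 and OsNAC3 thus balanced the decreases of the other 6 genes in the sum. The share of OsNAC10 was 2.39 ± 0.161% in pOE and 8.35 ± 0.451% in Teqing3. SNAC2 was 21.98 ± 1.43 times OsNAC10 in pOE and 5.55 ± 0.392 times in Teqing3, against 6.28 ± 0.215 times in pCPL and 7.61 ± 0.349 times in Teqing2.

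Across the 12 libraries of the pCPL and pOE tables, which fall into 4 groups, OsNAC2 varied most like ONAC045 among the members (Pearson r = 0.92) and next like OsNAP (r = 0.90). OsNAC4 and OsNAP had r = 0.89. ONAC045 and OsNAC3 ran in opposite directions (r = -0.93). These values mainly describe the order of 4 group means and carry no test. Among 13463 genes with a mean above 5 FPKM, those most like SNAC2 were LOC_Os04g50030, LOC_Os01g64630 and LOC_Os01g10130, each with r = 0.99. LOC_Os01g64630 averaged 38.3 FPKM in pCPL and 117 FPKM in Teqing2, and 63.0 FPKM in pOE and 48.8 FPKM in Teqing3. Those most like OsNAC2 were LOC_Os08g34580 (r = 0.996), LOC_Os05g46460 (r = 0.99) and LOC_Os05g04630 (r = 0.99). LOC_Os08g34580 averaged 25.3 FPKM in pCPL and 35.7 FPKM in Teqing2, and 11.6 FPKM in pOE and 47.7 FPKM in Teqing3.

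A list of 6 other NAC genes with known roles in stress or senescence held changes in both directions. In pCPL, where 35.0% of all genes rose and 35.6% fell, 1 rose and 4 fell, and in pOE, where 35.3% rose and 36.8% fell, 2 rose and 3 fell. The call of SNAC3, one of the 4 in pCPL, was lost with the replicate block and on leaving out each of 5 of the 6 libraries in turn. The median log2 fold change was -0.38 in pCPL and -0.50 in pOE. SNAC1, which acts in guard cells under drought, was at 316, 327 and 316 FPKM in pCPL, against 57.9, 59.9 and 59.7 FPKM in Teqing2. It was 5.40 times as high in pCPL (log2 fold change 2.41, limma adjusted p = 4.00e-11), the opposite of SNAC2 in the same libraries. In pOE SNAC1 was at 109.9, 108 and 104 FPKM, against 265, 269 and 259 FPKM in Teqing3, and fell by 1.29 on the log2 scale (limma adjusted p = 2.62e-09). Teqing3 held SNAC1 at 4.47 times its Teqing2 level, across separately normalized tables. The pCPL mean was above both Teqing groups, at 1.21 times Teqing3, whereas the pOE mean lay between them, at 1.81 times Teqing2. ONAC011, a senescence NAC gene, fell in pOE, with 11.1, 10.6 and 10.6 FPKM there and 25.6, 23.8 and 26.7 FPKM in Teqing3 (log2 fold change -1.16, limma adjusted p = 2.48e-07). ONAC022, a drought and salt gene, rose in pOE, with 13.9 ± 2.30 FPKM there and 6.14 ± 0.481 FPKM in Teqing3 (log2 fold change 1.05, limma adjusted p = 2.65e-05). SNAC3 and ONAC022 were the 2 other NAC genes read in YIL25, and both fell there.

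OsNAP is known to switch on some chlorophyll breakdown genes in leaves, and such an effect was not tested here. The chlorophyll breakdown genes were mostly lower where OsNAP was lower. Of 6 such genes, 4 fell in pCPL and the other 2 did not pass the test (median log2 fold change -0.60), and 4 fell and 1 rose in pOE (median -0.78). Of all genes tested, 35.6% fell and 35.0% rose in pCPL, and 36.8% fell and 35.3% rose in pOE. NYC1, a chlorophyll b reductase, was at 5.62, 6.16 and 5.83 FPKM in pOE, against 32.3, 32.1 and 31.0 FPKM in Teqing3 (log2 fold change -2.26, limma adjusted p = 3.11e-09). SGR, the stay-green gene of chlorophyll removal, averaged 14.7 ± 0.957 FPKM in pOE and 43.6 ± 3.23 FPKM in Teqing3 (log2 fold change -1.50, limma adjusted p = 7.76e-08). NOL, the partner reductase of NYC1, averaged 6.02 ± 0.339 FPKM in pCPL and 15.6 ± 0.425 FPKM in Teqing2, and fell there (log2 fold change -1.24, limma adjusted p = 2.43e-07). In pOE, NOL was at 6.79 ± 0.418 FPKM, against 8.13 ± 0.970 FPKM in Teqing3, and did not pass the test. The gene that rose in pOE was PAO, which opens the chlorophyll ring and was chosen here after its value was seen (log2 fold change 0.32, limma adjusted p = 1.03e-03). In YIL25, NYC1 was at 24.6 ± 1.41 FPKM, against 22.1 ± 1.21 FPKM in Teqing1, and neither it nor PAO passed the test (limma adjusted p = 0.0647 and 0.0561), though both did with median-of-ratios scaling. Set beside the other line's Teqing group, 6 of the 6 genes were lower in pCPL than in Teqing3 and 5 of 6 lower in pOE than in Teqing2, with no overlap of libraries. The share of all genes was not counted for these pairs. Beside their own Teqing group, 37.4% of all genes tested were lower with no overlap in pCPL and 38.4% in pOE. NYC1, SGR, NYC3 and RCCR1 were below both Teqing groups in both lines with no overlap of libraries, as OsNAP was. NYC3 in pCPL nevertheless did not pass the test beside Teqing2 (log2 fold change -0.19, limma adjusted p = 0.0714).

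Genes that stress NAC factors are known to raise, and other ABA-induced protective genes, were mostly on opposite sides of the 2 transgenic lines' own Teqing groups. Of all 9 such genes, with no filter on low values, 7 were higher with no overlap of libraries in pCPL than in Teqing2 and 2 overlapped, and 7 were lower in pOE than in Teqing3 and 2 overlapped. OsNAS2, among those lower in pOE, rests on 1, 1 and 2 reads there, against 17, 16 and 6 in Teqing3. Of all genes tested, 36.8% stood apart and higher in pCPL and 38.4% apart and lower in pOE. These shares are of genes that passed the filter, as 7 of the 9 did in pCPL and 6 in pOE. Beside the other line's Teqing group, in separately normalized tables, 3 of the 9 were higher and 3 lower in pCPL than in Teqing3. In pOE, 1 of the 9 was higher and 4 were lower than in Teqing2. The smallest increase that passed the test in pCPL, that of the proline synthesis gene OsP5CS1 at a log2 fold change of 0.10, was lost with limma-voom and with the trend on gene length removed. Among the stress members, OsNAC5 was likewise higher in pCPL and lower in pOE than its own Teqing groups, as was SNAC1 of the other NAC list. SNAC2, OsNAC3, OsNAC4 and OsNAC10 were not, and ONAC045 was lower in pOE but overlapped Teqing2 in pCPL. The dehydrin gene RAB16A was at 285, 257 and 267 FPKM in pCPL, against 48.7, 43.2 and 47.3 FPKM in Teqing2. It was at 0.920, 0.315 and 0.789 FPKM in pOE, from 14, 5 and 13 reads, against 97.8, 110.3 and 100.1 FPKM in Teqing3. The log2 fold change was 2.51 in pCPL (limma adjusted p = 4.74e-10) and -5.97 in pOE (limma adjusted p = 8.23e-10). Its pCPL mean was 2.63 times Teqing3 and its pOE mean 0.0145 times Teqing2, so these directions held beside both Teqing groups. RAB16B, RAB16C and RAB16D lie near RAB16A on chromosome 11. RAB16B rose in pCPL (log2 fold change 1.65) and fell in pOE, from 14, 24 and 18 reads there (log2 fold change -2.65, and -3.45 with a pseudocount of 0.1). RAB16D rose in pCPL (log2 fold change 1.56) and fell in pOE, where it rests on 10, 0 and 0 reads, so that its log2 fold change ran from -2.15 with the pseudocount of 1 to -5.71 with limma-voom. RAB16C, named here after its values were seen, did not pass the filter in pOE, at 0.431 FPKM in pOE and 0.461 FPKM in Teqing3 with overlapping libraries, and its pCPL mean of 1.36 FPKM stood beside a Teqing2 mean of 0.109 FPKM.

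OsNAS3, a nicotianamine synthase gene, averaged 49.4 ± 3.61 FPKM in pCPL and 20.8 ± 2.67 FPKM in Teqing2, and 19.4 ± 2.41 FPKM in pOE and 72.8 ± 3.34 FPKM in Teqing3. It rose in pCPL (log2 fold change 1.21, limma adjusted p = 1.38e-06) and fell in pOE (log2 fold change -1.86, limma adjusted p = 5.12e-08). OsLEA3, named here for its known link with OsNAC5 after its values were seen, was at 454, 441 and 464 FPKM in pCPL and at 146, 143 and 148 FPKM in Teqing2. In pOE it was at 145, 138 and 147 FPKM, and in Teqing3 at 477, 523 and 464 FPKM. OsLEA3 and OsNAC5 were thus both high in pCPL and Teqing3 and both low in pOE and Teqing2. So were SNAC1 and OsNAS3, and an effect of OsNAC5 on OsLEA3 was not tested. OsLEA3 changed more than OsNAC5, by a log2 fold change of 1.63 in pCPL and -1.76 in pOE. Beside the other Teqing group the direction of OsLEA3 was turned in pCPL, and in pOE its difference was not clear of the spread. The OsLEA3 mean in pCPL was 0.928 times Teqing3, and in pOE it was 0.984 times Teqing2 with overlapping libraries. OsNAS3 was at 0.679 times Teqing3 in pCPL and at 0.931 times Teqing2 in pOE, where libraries overlapped.

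Of 6 ABA signalling genes, 4 rose and 1 fell in pCPL (list median 0.23 on the log2 scale), where 35.0% of all genes rose, and 6 of 6 fell in pOE (median -0.86), where 36.8% of all genes fell. The call of SAPK8, an ABA kinase gene and one of the 4, was lost with limma-voom and with the length trend removed, and it is named on that account. Beside Teqing3, 3 of the 6 were lower in pCPL and the other 3 overlapped, and beside Teqing2, 4 were lower and 1 was higher in pOE. OsABI5, a bZIP factor of the ABA response, averaged 38.2 ± 1.14 FPKM in pCPL and 29.7 ± 1.68 FPKM in Teqing2, and 22.5 ± 1.63 FPKM in pOE and 59.9 ± 1.63 FPKM in Teqing3 (log2 fold change 0.35 in pCPL and -1.38 in pOE). Its pCPL mean was 0.637 times Teqing3. In YIL25 it averaged 73.1 ± 1.92 FPKM and in Teqing1 32.1 ± 1.05 FPKM, a log2 fold change of 1.16 (limma adjusted p = 1.07e-06), in the same libraries in which OsNAC4 rose and SNAC2 fell. The ABA kinase gene SAPK9 fell in pOE by 1.20 on the log2 scale (limma adjusted p = 4.62e-07).

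**Figure D4:**
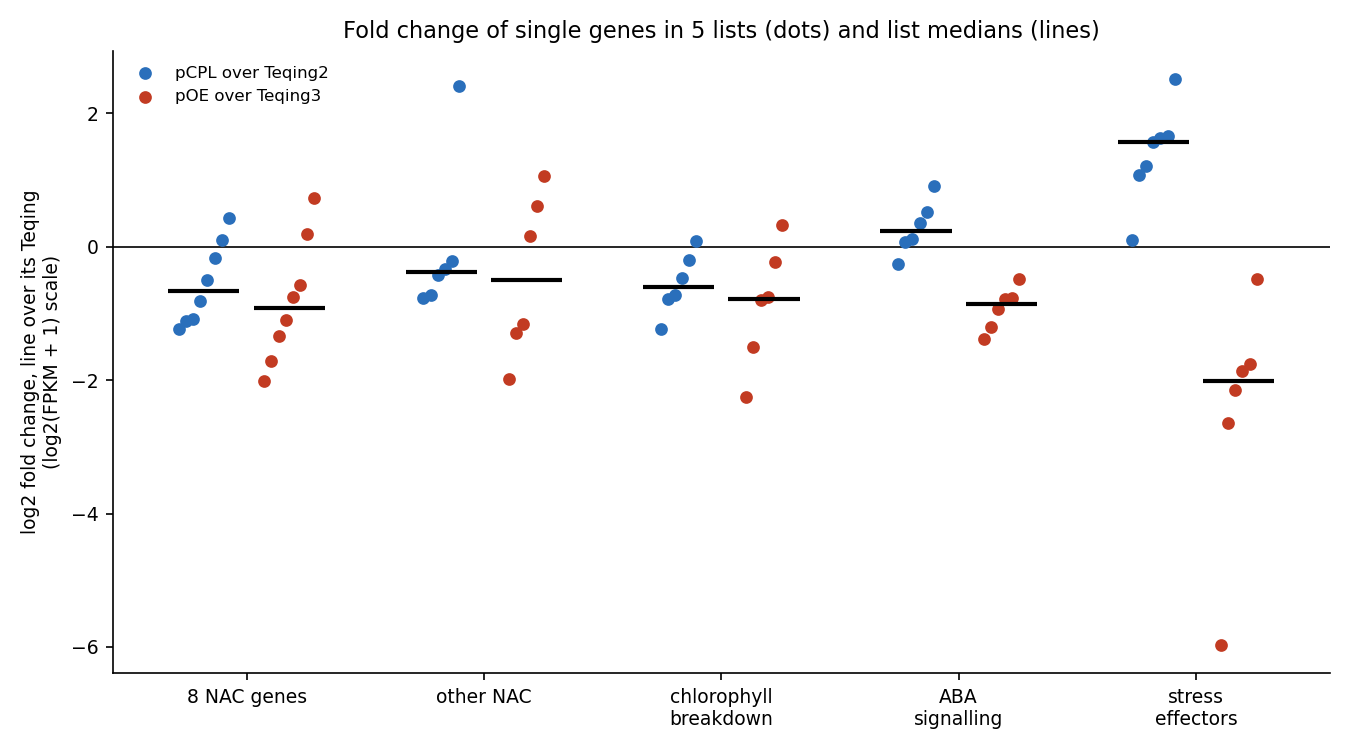
Log2 fold change of every tested gene (dots) and list median (lines) for the 8 NAC genes and 4 other lists in pCPL over Teqing2 and pOE over Teqing3, on the log2(FPKM + 1) scale. The NAC and chlorophyll breakdown medians are below 0 in both lines, and RAB16A among the stress effectors is at 2.51 in pCPL and -5.97 in pOE. Stress effectors that failed the filter on low values are not drawn.

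In the pCPL and pOE tables a member had 175 reads (OsNAC2 in pOE) to 13034 reads (SNAC2 in Teqing2) in a library, out of 16620557 to 26298032 reads over genes. The coefficient of variation among 3 libraries of a group was 0.307% to 11.6% over all members. It was highest for OsNAP in Teqing2 and lowest for OsNAC3 in pOE.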

How the data were processed

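RNA-seq of the 18 callus libraries was processed by the authors. They mapped paired-end reads to IRGSP-1.0 with TopHat2 and deposited FPKM values per gene, with a separate table for each line. CASAVA 1.8, bcl2fastq and Cufflinks are further tools in the submitters' processing notes. The deposited tables also hold the authors' own fold changes and p-values, which were not used.

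With limma 3.58.1 (R 4.3.3, linear model, trended prior), every line was compared with the Teqing libraries of its table on log2(FPKM + 1). Genes were kept where either group averaged more than 1 FPKM. The scale makes fold changes of weak genes look smaller than they are. Where a locus had several entries, the one with the highest mean was used. Multiplied by gene length, the pCPL and pOE values gave whole reads within 0.1 reads for 100% of values up to 50 reads, and these reads served for depth (16620557 to 26298032 per library) and for limma-voom as an alternative. The YIL25 table gives no gene length. Replicate libraries differed by more than read sampling (chi-squared per degree of freedom 2.06 to 3.66), and p-values measure the spread among 3 libraries. They leave out differences between groups of one genotype and between transformation events. Across separately normalized tables, the highest Teqing mean was 1.88 times the lowest for SNAC2 and 2.22 times for OsNAC4. With 1 group per line, an effect of the line cannot be told apart from such differences. The fit was tested on simulated data.

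Genes named beside the 8 were mainly those at the study's thresholds in pCPL or pOE with the largest change, up to 4 per list. The 3 genes most alike to the most abundant stress and senescence member were added. BOC1, the marker genes, SNAC3, NYC3, RCCR1, PAO, SAPK8, OsP5CS1, OsbZIP23, RAB16C, OsNAS2 and OsLEA3 were named outside this rule. The members and lists were chosen with earlier results of these data known. A list of further NAC genes by annotation was not made, and no promoter or protein sequence was used here.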

Additional observations from a re-analysis of the deposited data

Results flagged for a closer look

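Of the 8 NAC genes, 4 stood on opposite sides of the Teqing libraries in different lines, with every library of the line on that side. The share of all genes that did so was not counted. Standing apart was common, with 36.8% of all genes tested higher and 37.4% lower in pCPL, and 36.7% higher and 38.4% lower in pOE. The differences between lines were not tested, and each line has its own Teqing group. SNAC2 had log2 fold changes of -0.74 in YIL25, -1.11 in pCPL and 0.19 in pOE. OsNAC4 had 1.60 in YIL25, -1.23 in pCPL and -0.75 in pOE. OsNAC5 had 0.43 in pCPL and -0.57 in pOE. OsNAC3 had -0.17 in pCPL and 0.73 in pOE. For SNAC2, OsNAC5 and OsNAC3 the Teqing groups also differed, with Teqing3 at 0.531, 1.53 and 0.674 times Teqing2.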

How the results depend on the processing

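The log2 fold changes of the 8 NAC genes kept their direction and their side of an adjusted p of 0.05 in all 230 values under the alternatives, which were a pseudocount of 0.1, no filter, a filter at 5 FPKM, median-of-ratios scaling, a replicate block, limma-voom on recovered reads, removal of a trend on gene length (added after the data were seen) and leaving out each library. Limma-voom was not run for YIL25, where no gene length is given. The weakest call was OsNAC3 in pCPL, with a largest adjusted p of 0.0494 and a log2 fold change of -0.21 to -0.12 without a library. Without a library, SNAC2 in pOE was at 0.15 to 0.25. The numbers of members that rose and fell did not change, and those at the study's thresholds were 2 to 3 in pCPL without a library. With the replicate block, the members that rose and fell were 1 and 1 in YIL25, 1 and 6 in pCPL, and 2 and 6 in pOE. Same-numbered libraries of a line and its Teqing deviated together with correlations of only -0.0342 to 0.00866 over 9 pairs, so the numbers were not taken as pairs.

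Among other genes, OsbZIP23 in YIL25 moved to 0.0025 with median-of-ratios scaling, and OsP5CS1 in pCPL to -0.010 with the length trend removed. Median-of-ratios scaling shifted the median of all genes in YIL25 to 0.04, against -0.13, and the share of higher calls at the study's thresholds to 52.8%, against 39.8%. Limma-voom shifted the pOE median to 0.17 and that share to 59.9%, against 43.8%. Limma-voom also called 3043 genes higher in pOE, against 1537, and 1994 genes lower in pCPL, against 1294. RAB16C in pCPL rests on 1 to 2 reads per Teqing2 library.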
